A study of Mus musculus with 20 samples.

Results

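The mitochondrially encoded transcripts are the genes of the deposited count table whose symbol begins with mt-. The rule found 37 of 46078 genes: 2 ribosomal RNA (rRNA) genes, 22 transfer RNA (tRNA) genes and 13 protein-coding (mRNA) genes, which is every gene annotated on the mitochondrial chromosome. They were followed through 20 libraries from translating ribosome affinity purification (TRAP-seq), in which GFP-tagged cytosolic ribosomes are pulled out of frozen epididymal fat and the RNA held on them is sequenced. The labels give all mice the genotype AdipoERCre x NuTRAP on C576BL6 background, and the methods name C57BL/N as the strain of both lines: a tamoxifen-inducible Cre under an adipocyte promoter switches on the ribosome tag, so the tag is meant to mark adipocytes among all the cells of the fat pad. All received 2 doses of tamoxifen at 4 to 5 weeks of age and a washout of 2 weeks before the diets began, and each library came from 1 mouse.

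The short arm held 4 groups of 3 mice. C mice were 18 weeks old and ate chow, H mice were 18 weeks old after 12 weeks of high-fat diet (HFD), CC_s mice were 26 weeks old on chow, and HC mice were 26 weeks old after 12 weeks of HFD and then 8 weeks of chow. The long arm held 4 groups of 2 mice: CC_l (31 weeks old, chow), HH (31 weeks old, 25 weeks of HFD), CCC (39 weeks old, chow) and HHC (39 weeks old, 25 weeks of HFD and then 8 weeks of chow). The arms carry different run labels, so groups were compared only within an arm. Each HFD or weight-loss group was set against the chow group of its age, and the older against the younger chow group. By the methods, C and CC_l ate a low-fat chow, while CC_s and CCC were switched from it to a standard chow. The older and younger chow groups thus differ in kind of chow as well as in age, which cannot be told apart.

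Mitochondrial DNA is a small circle copied many times in each cell. Both of its strands are transcribed into long precursors, in which tRNAs punctuate the rRNAs and mRNAs and are cut out to release them. The mRNAs encode subunits of respiratory chain complexes I, III and IV and of the ATP synthase (complex V), and are translated inside the organelle on mitochondrial ribosomes built around the 2 rRNAs. These ribosomes do not carry the GFP tag, which sits on the cytosolic ribosome. The mitochondrial reads in a pulldown are therefore reads from RNA outside the tagged particles, and their share is commonly watched as a sign of how clean a pulldown is. No library of the unfractionated tissue was analysed here, so an enrichment or depletion against the tissue could not be computed. In bulk samples fewer cells of a type and less RNA per cell cannot be told apart.

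The tRNA members with the highest mean level are shown first, because almost all tRNA counts came from them. The sequences are GENCODE annotation on GRCm38 (mm10), written 5′ to 3′ as DNA. All 3 genes lie on the minus strand of the mitochondrial chromosome, the light-strand set, and the capitals mark the anticodon found within the loop between 5 paired bases on each side.
mt-Tq (tRNA for glutamine, chrM:3772-3842): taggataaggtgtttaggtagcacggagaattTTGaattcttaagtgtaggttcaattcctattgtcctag
mt-Tp (tRNA for proline, chrM:15356-15422): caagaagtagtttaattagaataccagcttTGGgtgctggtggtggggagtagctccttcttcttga
mt-Te (tRNA for glutamate, chrM:14071-14139): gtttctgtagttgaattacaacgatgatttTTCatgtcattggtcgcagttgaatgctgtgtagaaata

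The second set of sequences shows which mRNA members share their sequence with the nuclear genome, so that their reads may fit more than 1 place. Copies of mitochondrial DNA lie in the nuclear genome, and 7 annotated pseudogenes stand side by side on the minus strand of chromosome 1. Below, the start of each aligned stretch of mt-Nd3 (a complex I subunit) and mt-Co1 (the catalytic subunit of complex IV) is set against its copy, with differing bases in capitals. The 60 bases of mt-Co3 (another complex IV subunit) are identical to those of Gm28437 (chr1:24613912-24613971) and are therefore printed once.
mt-Nd3 (chrM:9459-9518): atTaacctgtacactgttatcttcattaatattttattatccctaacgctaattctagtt
Gm28438 (chr1:24613060-24613119): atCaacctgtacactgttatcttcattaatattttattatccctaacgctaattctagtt
mt-Co1 (chrM:6381-6440): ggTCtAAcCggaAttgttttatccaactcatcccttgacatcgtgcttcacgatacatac
Gm29216 (chr1:24616138-24616197): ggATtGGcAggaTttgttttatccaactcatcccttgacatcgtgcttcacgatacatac
mt-Co3 (chrM:8607-8666): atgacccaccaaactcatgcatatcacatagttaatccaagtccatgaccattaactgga

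Over the whole aligned stretch, mt-Nd3 and Gm28438 differed at 1 of 345 bases (T3C, the member's base first, counted from 1 at the member's 5′ end). mt-Co1 and Gm29216 differed at 6 of 492 bases, of which T1056A is the first and A1066T the last, so a read from the final part of mt-Co1 matches both places. No base differed for mt-Co3 and Gm28437 over 783 bases, mt-Co2 and Gm28661 over 681, mt-Atp6 and Gm10925 over 678, mt-Nd4l and Gm10222 over 294, or the first 876 bases of mt-Nd4 and Gm28439. How the authors treated reads with several equally good positions is not given in the sources used here.

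The share of all counts that came from the 37 genes ranged from 1.32% to 23.0% over the libraries. The libraries held 10710277 to 36738954 counts, so the 95% Wilson intervals of these shares were at most 0.0399 percentage points wide. That width covers counting error only, and the spread between mice of a group was far larger. The 3 C mice held 23.0%, 17.9% and 3.73%, the widest spread in the short arm. The 3 H mice held 4.60%, 4.95% and 7.0%, all above the lowest C mouse and below the other two.

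In the older short-arm groups the spread was again wide. CC_s mice held 11.9%, 3.64% and 2.00%, and HC mice 1.88%, 5.18% and 13.9%, so that the groups overlapped over nearly their whole range. In the long arm the CC_l mice held 2.11% and 1.32%, the lowest group of the study, and the HH mice 7.35% and 5.32%. These 2 groups did not overlap. CCC mice held 1.48% and 11.2%, and HHC mice 4.23% and 1.39%.

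**Figure D1:**
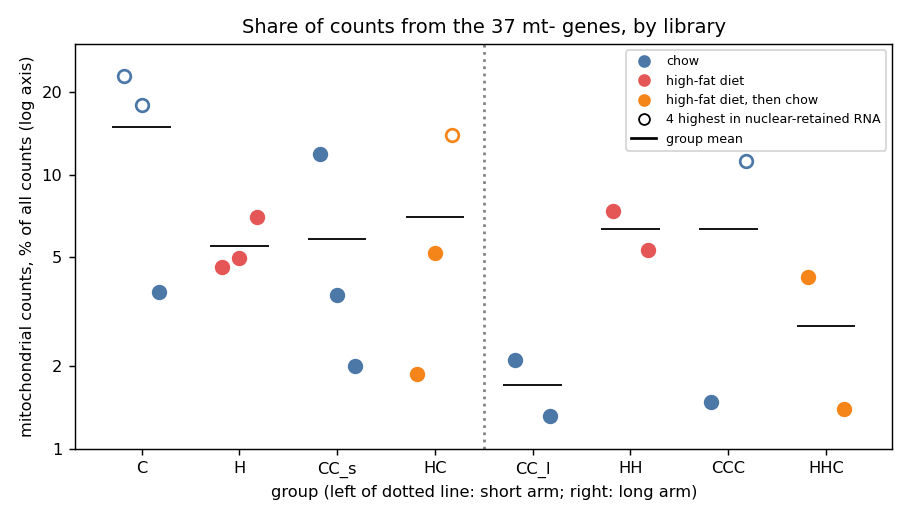
Share of counts from the 37 mt- genes in each library, in percent on a log axis, by group, with the short arm left of the dotted line; bars are group means and open symbols are the 4 libraries highest in nuclear-retained RNA. The HH libraries (5.32% and 7.35%) lie above both CC_l libraries, and the other compared groups overlap.

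As group means, the mitochondrial share was 14.9% ± 9.99 in C and 5.52% ± 1.3 in H (SD, n = 3 each), and 5.85% ± 5.30 in CC_s and 7.0% ± 6.22 in HC (SD, n = 3 each). It was 1.71% ± 0.558 in CC_l, 6.34% ± 1.44 in HH, 6.34% ± 6.88 in CCC and 2.81% ± 2.00 in HHC (SD, n = 2 each). HH thus stood 4.62 percentage points or 3.70 times above CC_l. From highest to lowest the order was C, HC, CCC, HH, CC_s, H, HHC and CC_l, and neighbours in that order overlapped, except H and HHC, which belong to different arms and were not compared.

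By an exact two-sided permutation test, H against C gave p = 0.4, HC against CC_s p = 0.7, HHC against CCC p = 0.667, CC_s against C p = 0.2 and CCC against CC_l p = 0.667. HH against CC_l gave p = 0.333, which is the smallest value that 2 against 2 mice can give in an exact permutation test. With 3 against 3 the smallest is 0.1, so no comparison of shares could pass 0.05, and after Benjamini-Hochberg adjustment over the 6 comparisons the permutation p was 0.7 for each.

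The directions of 5 of these 6 differences turned with a few libraries that stood apart. C replicates 1 and 2, HC replicate 3 and CCC replicate 2 held 31524 to 53562 CPM (counts scaled to sequencing depth, here to nuclear counts alone) from 6 RNAs that stay in the nucleus (Malat1, Neat1, Meg3, Kcnq1ot1, Snhg11 and Miat), against 2268 to 14435 in the other libraries. Their mitochondrial shares were 23.0%, 17.9%, 13.9% and 11.2%. These are among the highest shares of the study, so leaving the 4 libraries out lowers the means of their own groups. It also leaves C replicate 3 and CCC replicate 1 as the only mice of their groups. Without the 4 libraries, a choice made after the values were seen, the difference was 1.78 points for H against C, -2.32 for HC against CC_s, 1.33 for HHC against CCC, 2.11 for CC_s against C and -0.236 for CCC against CC_l. With all libraries these 5 differences were -9.37, 1.15, -3.53, -9.04 and 4.63 points, so each changed sign, while HH against CC_l holds none of the 4 libraries. Leaving out CCC replicate 2 alone turned HHC against CCC and CCC against CC_l to the same values, and leaving out HC replicate 3 or CC_s replicate 3 turned HC against CC_s to -2.32 and -0.774 points, respectively. What part nuclear RNA has in the shares was not tested.

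Within the mitochondrial counts, rRNA took the larger part in every library, from 54.0% in H replicate 2 to 94.0% in HHC replicate 1. mt-Rnr2, the large-subunit rRNA (chrM:1094-2675), alone supplied 67.3% of all mitochondrial counts, and mt-Rnr1, the small-subunit rRNA (chrM:70-1024), 2.95%. A mitochondrial ribosome holds 1 copy of each rRNA. In these libraries mt-Rnr2 had 10.6 (C replicate 1) to 43.3 (CCC replicate 2) times the counts of mt-Rnr1. Per kb the ratio still ran from 6.40 to 26.1. The cDNA was primed with oligo-dT and cut by a transposase, so counts follow priming and length as well as abundance. Mean levels of different genes are therefore given per kb. Shares of counts, among them those of the complexes and of single genes, are not corrected for length.

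The rRNA share of mitochondrial counts was 58.0%, 64.9% and 85.2% in the C mice and 61.1%, 54.0% and 71.2% in the H mice. The CC_s mice gave 76.4%, 93.1% and 71.5%, and the HC mice 73.9%, 80.4% and 75.3%. Both pairs of groups overlapped. In the long arm it was 74.9% and 73.4% in CC_l and 65.3% and 56.3% in HH, so here the HFD mice lay lower, with more of their mitochondrial counts from mRNA. CCC mice gave 81.1% and 85.1%, above both CC_l mice, and HHC mice gave 94.0% and 62.6%.

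The difference in rRNA share was -7.31 percentage points for H against C (exact permutation p = 0.6), -3.82 for HC against CC_s (p = 0.8) and 11 for CC_s against C (p = 0.4). It was -13.4 points for HH against CC_l and 8.92 for CCC against CC_l, both with the smallest p an exact permutation test of 2 against 2 allows (0.333), and -4.79 for HHC against CCC (p = 1). The adjusted permutation p over the 6 comparisons ran from 0.8 to 1. The direction turned without C replicate 3 for H against C (0.597 points), without CC_s replicate 2 for HC against CC_s (2.56) and without HHC replicate 2 for HHC against CCC (10.9). For CC_s against C it turned to -4.85 without C replicates 1 and 2, which leaves C replicate 3 alone. Counting per kb, or only genes with few words found elsewhere, changed no direction.

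**Figure D2:**
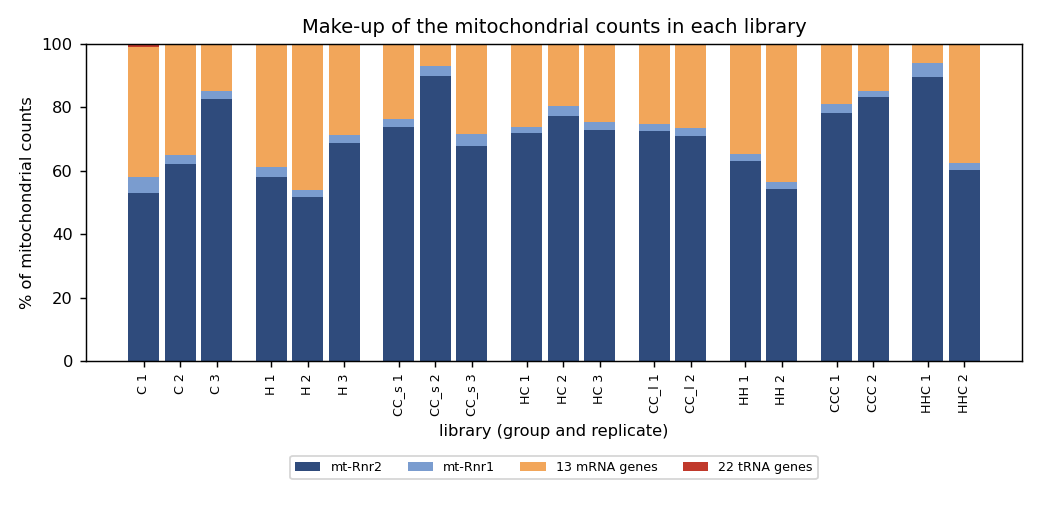
Make-up of the mitochondrial counts of each library, in percent, split into mt-Rnr2, mt-Rnr1, the 13 mRNA genes and the 22 tRNA genes. rRNA spans 54.0% to 94.0%, and tRNA stays below 1% throughout (highest 0.927%, in C replicate 1).

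The 22 tRNA genes supplied 0.0476% to 0.927% of mitochondrial counts. Mature tRNAs are short, lack a poly(A) tail and are poorly caught by this kind of library, so these counts need not reflect mature tRNA. Light-strand tRNA genes gave 91.1% to 98.3% of the tRNA counts and mt-Tq alone 38% to 88.8%. mt-Tq, whose gene overlaps the end of mt-Ti on the opposite strand, had 1894 CPM, scaled to all counts, in C replicate 1, 293 and 58.5 in the other C mice, and 9.31 to 275 in the remaining libraries. C replicate 1 thus stood apart for this gene. mt-Tk, the tRNA for lysine, had 0 counts in all 20 libraries, which allows a level of up to 0.0817 to 0.28 CPM in each.

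The tRNA share of mitochondrial counts averaged 0.452% ± 0.412 in C and 0.119% ± 0.0630 in CC_s (SD, n = 3 each), and these groups did not overlap. The exact permutation p was 0.1, the smallest possible, and 0.6 after adjustment over the 6 comparisons, which does not span the other shares compared. In the other 5 comparisons the adjusted permutation p was 0.96 or 1.

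Among the mRNAs, mt-Cytb, the only mitochondrially encoded subunit of complex III (chrM:14145-15288), was the most abundant, with a mean of 7221 CPM per kb. mt-Nd1 and mt-Nd2, core complex I subunits, had 2999 and 1028 CPM per kb, mt-Nd4 1316 and mt-Co1 2558. mt-Nd6, the one mRNA encoded on the light strand (chrM:13552-14070), had 1081. At the other end mt-Nd4l, the lowest mRNA member, had 2.03 CPM per kb, and 2 libraries held no count of it.

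The low levels lined up with the nuclear copies. For mt-Co2, mt-Atp6, mt-Co3, mt-Nd3 and mt-Nd4l, 98% to 100% of the 50-base words of the gene also occur in another annotated transcript, and their means were 2.03 to 66.3 CPM per kb. The 7 mRNA members with fewer shared words, mt-Atp8 left aside, had 540 to 7221. mt-Atp8, a short complex V subunit gene overlapping mt-Atp6, had 20.9 CPM per kb although none of its words occur elsewhere. The 7 copies on chromosome 1 together held only 176 to 22089 counts per library, which is 0.0389% to 0.56% of the mitochondrial counts. Whether reads were left out because they fit 2 places was not tested.

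**Figure D3:**
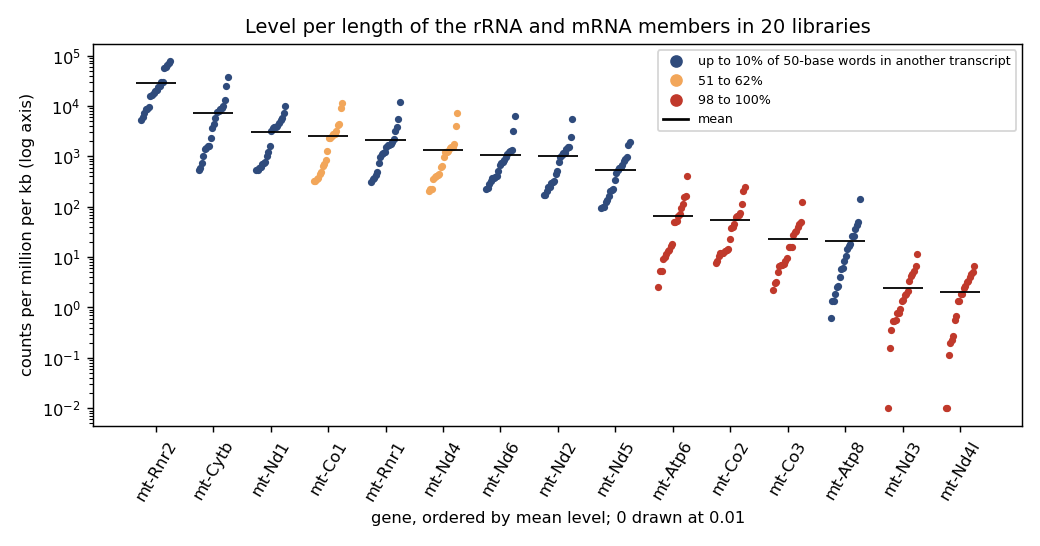
CPM per kb, on a log axis, of the 2 rRNA and 13 mRNA members, with a point for each of the 20 libraries and bars at the mean; colour gives the share of 50-base words that another annotated transcript also holds. The 5 members with 98 to 100% shared words average 66.3 or less, and the members with up to 10% average 540 or more except mt-Atp8 (20.9).

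Complex I mRNAs made up 31.5% to 54.3% of mitochondrial mRNA counts, mt-Cytb (complex III) 24.9% to 48.0%, complex IV 13.7% to 23.6% and complex V 0.0814% to 0.416%. mt-Co2 and mt-Co3 of complex IV, mt-Atp6 of complex V and mt-Nd3 and mt-Nd4l of complex I are the members with near-complete copies, and whether this lowers the shares was not tested. mt-Cytb took 46.4%, 45.1% and 48.0% of the mRNA counts in the C mice and 41.3%, 26.6% and 31.7% in the CC_s mice. These groups did not overlap, which gives the smallest exact permutation p of 0.1 (0.4 adjusted over the 6 comparisons). mt-Nd6 took 3.48%, 2.66% and 3.47% of the mRNA counts in the C mice and 1.92%, 1.92% and 1.90% in the H mice, again without overlap and with an exact permutation p of 0.1 (0.6 adjusted). Other shares and ratios were compared too, and these adjustments do not span them. With 3 against 3 mice, complete separation has a chance of 0.1 in each comparison, so some would separate without any difference.

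For single genes, edgeR's quasi-likelihood test ran over the 21464 genes that passed the filter on low counts, and 28 of the 37 members passed it. A called gene had a nominal p below 0.01 and a log2 fold change of 1 or more in either direction, and p-values adjusted by Benjamini-Hochberg over all genes tested are given beside it. The 9 members that did not pass are tRNA genes.

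In H against C, 2 of 28 members were called, both lower, against 6.49% of all genes tested. mt-Te had 71.2, 25.0 and 5.00 CPM in the C mice and 2.79, 3.35 and 2.61 in the H mice, so every H mouse lay below every C mouse. Such an order was found for 1 of 28 members and for 6.91% of all genes tested. mt-Te fell by 3.56 on the log2 scale (SE 0.87, adjusted p = 0.0426 in edgeR). mt-Ts1, a tRNA for serine on the light strand, had 16.8, 5.75 and 1.17 CPM in C and 1.23, 0.683 and 1.31 in H, and fell by 2.89 (SE 0.99, adjusted p = 0.145). For mt-Ts1 the lowest C mouse lay within the range of the H mice.

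Of all 28, 2 had a higher fitted value in H, and the median log2 fold change was -1.72 against -0.15 over all genes tested. mt-Rnr2 had 122058, 111046 and 30868 CPM in C and 26672, 25551 and 48135 in H (log2 fold change -1.43, SE 1.02), and mt-Cytb 43818, 28192 and 2620 in C and 6480, 10220 and 8827 in H (-1.55, SE 1.04). Neither passed the test. The third C mouse lay within the range of the H mice for mt-Rnr2 and below it for mt-Cytb. The remaining named members, mt-Rnr1, mt-Nd1, mt-Nd2, mt-Nd4, mt-Co1, mt-Nd6, mt-Tq, mt-Tp and mt-Nd4l, had log2 fold changes from -3.00 (mt-Tq) to 0.54 (mt-Nd4l) and were not called.

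Single mice moved these counts. Without C replicate 1, no member was called and mt-Te stood at -2.38 with a nominal edgeR p of 0.0125. Without C replicate 2 or any 1 of the H mice 1 member was called, and without C replicate 3 there were 5. The shares of all genes called in these refits are not given here. C replicate 1 held 3103 CPM of the 7 epididymal epithelium markers and 224 of the 9 spermatid markers, scaled to nuclear counts, against 22.1 and 23.7, and 42.7 and 6.55, in the other C mice. Marker lists moved as well: 7 of 10 macrophage, 4 of 7 endothelial and 2 of 8 adipocyte progenitor markers were called higher in H. Of 7 epididymal epithelium markers 2 were called higher, but only 3 had a higher fitted value and the list median was -0.21. Of 12 adipocyte markers 1 was called higher and 2 lower. Called lower were 2 of 5 mesothelial markers and 2 of 6 nuclear-retained RNAs (Neat1 and Snhg11). The part of these lists was not tested. Without all 4 libraries high in nuclear RNA, C was left with replicate 3 alone. The median was then 0.95 with 23 of 28 members higher in H, and mt-Te stood at -1.18. Both called tRNA genes lie opposite stretches that the plus-strand precursor also covers (mt-Te opposite the region after mt-Nd5, mt-Ts1 after mt-Co1), and no strand setting of the counting is given in the sources used here, so the 2 strands cannot be told apart.

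In CC_s against C, 2 of 28 members were called, both lower, against 2.45% of all genes tested. mt-Te had 5.02, 1.72 and 1.53 CPM in the CC_s mice and fell by 3.27 (SE 0.86, adjusted p = 0.393 in edgeR). mt-Nd6 had 509, 122 and 191 CPM in CC_s and 3287, 1660 and 189 in C, and fell by 2.29 (SE 0.79, adjusted p = 0.393). For both genes the highest CC_s mouse lay above the third C mouse. The median of the 28 was -1.72 against -0.17 over all genes tested. CC_s and C also differ in kind of chow, and this comparison shares the C mice with H against C. Of the marker lists, 2 of 5 mesothelial, 2 of 9 spermatid and 1 of 7 epididymal epithelium markers and 1 of 6 nuclear-retained RNAs (Snhg11) were called lower in this comparison, and their part was not tested. Without C replicate 1, no member was called. Without CC_s replicate 1, 13 members were called, without CC_s replicate 2 or 3 there was 1, and without C replicate 3 there were 6. The shares of all genes called in these refits are not given here, so the counts cannot be set against them. Without the 4 libraries high in nuclear RNA, C was left with replicate 3 alone, and mt-Te stood at -0.93 and mt-Nd6 at 0.47.

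In HH against CC_l, none of the 28 members was called by edgeR, against 6.79% of all genes tested. All 28 had a higher fitted value in HH, with a median log2 fold change of 2.34 against -0.23 over all genes. By edgeR 8 had a nominal p below 0.05, and the share of all genes with such a p is not given here. For 27 members both HH mice lay above both CC_l mice, which was so for 29.3% of all genes tested. DESeq2 called 1 member, and edgeR fitted on the compared groups alone called 14 of 23 tested, all higher. The 6.79% comes from the fit on all 8 groups. The share of all genes called in the smaller fit is not given here, so the 14 cannot be set against it. Without CC_l replicate 1, edgeR called 1.

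mt-Cytb had 1845 and 1188 CPM in CC_l and 9199 and 9953 in HH (log2 fold change 2.59, SE 1.32, adjusted p = 0.321 in edgeR). mt-Nd1 had 969 and 521 CPM in CC_l and 5158 and 3506 in HH (2.48, SE 1.09), and mt-Rnr2 15331 and 9383 in CC_l and 46407 and 28913 in HH (1.54, SE 1.25). mt-Nd6 had 168 and 203 CPM in CC_l and 662 and 578 in HH (1.64, SE 0.94). The 4 genes, an rRNA and mRNAs of both strands, thus showed the same order of mice groups without passing the test.

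Several marker lists moved in this comparison too. The 10 macrophage markers summed to 202 and 339 CPM, scaled to nuclear counts, in CC_l and 3504 and 4718 in HH, with 10 of 10 called higher. The 7 endothelial markers summed to 172 and 174 in CC_l and 961 and 1819 in HH, with 7 of 7 called higher, and 5 of the 8 progenitor markers were called higher (484 and 657 against 4197 and 5823). The 12 adipocyte markers summed to 76213 and 73732 in CC_l and 33947 and 38649 in HH, with 1 of 12 called, lower. No gene of these 4 lists was at 0 in all libraries of either group. CC_l replicate 1 also held 4180 from the 9 spermatid markers, against 14.0 in the other CC_l mouse, and without it the share in HH lay 5.02 points above CC_l. The part of other cells in the mitochondrial values was not tested.

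In HC against CC_s no member was called (1.74% of all genes tested), 0 of 28 had a nominal edgeR p below 0.05, DESeq2 called 0 and the median was -0.06. Marker lists moved here too, with 7 of 10 macrophage, 6 of 9 spermatid and 1 of 8 progenitor markers called higher. HC replicate 3 held 920 CPM of the spermatid markers, scaled to nuclear counts, against 5.22 and 14.3 in the other HC mice. In HHC against CCC no member was called (3.12% of all genes), 1 had a nominal edgeR p below 0.05, DESeq2 called 0, and the median was -0.95 with 4 of 28 higher. In CCC against CC_l none was called (2.66%), 1 had a nominal edgeR p below 0.05, DESeq2 called 0, and the median was 1.23 with 27 of 28 higher. In the last 2 comparisons the sign turned without the libraries high in nuclear RNA, which leaves CCC with replicate 1 alone. The medians were then 0.79 and -0.15. In HHC against CCC 2 of 7 endothelial markers, 1 of 5 mesothelial markers and 2 of 6 nuclear-retained RNAs were called lower. There 1 of 12 adipocyte markers was called higher. In CCC against CC_l 4 of 9 spermatid markers were called lower. Called higher there were 2 of 10 macrophage, 2 of 5 mesothelial and 1 of 8 progenitor markers. The part of these lists was not tested.

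**Figure D4:**
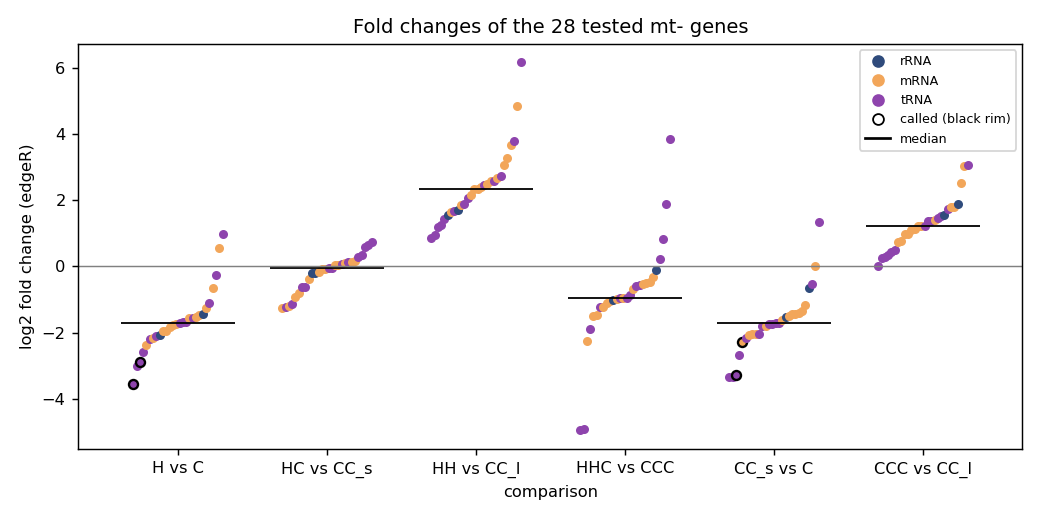
log2 fold changes of the 28 tested mt- genes in the 6 comparisons, from edgeR, coloured by class, with a black rim for called genes and bars at the median. The medians are -1.72, -0.06, 2.34, -0.95, -1.72 and 1.23 from left to right; the extreme tRNA points in HH vs CC_l and HHC vs CCC are against groups at 0 counts and are no measure of size.

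Whether the diet effect differed after weight loss was tested as an interaction. For H against C and HC against CC_s, no member passed an adjusted edgeR p of 0.05, nor did any other gene (0%), while 2 members had a nominal p below 0.05. For HH against CC_l and HHC against CCC, no member passed, against 0.815% of all genes, and 9 had a nominal p below 0.05. DESeq2 gave 0 members at an adjusted p below 0.05 in both. The effects of HFD in the 2 arms had opposite signs in the fitted values (medians -1.72 and 2.34). The interaction of H against C with HH against CC_l, added after these values were seen, gave 18 members a nominal edgeR p below 0.05 and none an adjusted one. Without the 4 libraries high in nuclear RNA, that interaction has only C replicate 3 for the C group, so its counts are not given. The share of all genes with a nominal p below 0.05 is not given for these interactions. The counts of members at that threshold are therefore no result about the members.

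Across libraries, the ratio of mitochondrial to nuclear counts was set against 13 gene lists, each as the mean log2 CPM scaled to nuclear counts, so that mitochondrial counts do not enter the list levels. Both measures are divided by nuclear counts, and they share that denominator. Libraries were shuffled across groups, so the permutation p mix differences between groups with the spread between mice of a group. The nuclear-encoded respiratory chain list, 84 genes for the nuclear-encoded subunits of the complexes, among them the 4 of complex II (Sdha to Sdhd), which has no mitochondrially encoded subunit, ran opposite to the mitochondrial ratio (Pearson r = -0.84, permutation p = 2e-05, and Spearman rho = -0.86, permutation p = 1e-05, n = 20). Adjusted over the 13 lists, the permutation p were 0.00013 and 6e-05. The relation held without C replicates 1 and 2, the libraries farthest from the median (r = -0.85), within the 12 short-arm libraries (r = -0.83) and within the 8 long-arm libraries (r = -0.95, exact permutation p = 0.00092). It held too without the 4 libraries high in nuclear RNA (r = -0.81, n = 16). Summed, this list ranged from 65440 CPM, scaled to nuclear counts, in HHC replicate 2 (mitochondrial share 1.39%) to 11260 in CCC replicate 2 (share 11.2%).

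The 78 genes for mitochondrial ribosomal proteins, made in the cytosol and imported to build the organelle's ribosome, behaved alike (r = -0.85 and rho = -0.90, permutation p = 1e-05 for both, the smallest that 100000 permutations can give, n = 20). Within the short arm r was -0.85, within the long arm -0.95 (exact permutation p = 0.00087) and without C replicates 1 and 2 -0.86. The 78 genes for cytosolic ribosomal proteins, which build the tagged particle, gave r = -0.57 (rho = -0.48, n = 20, adjusted permutation p = 0.0107 for r and 0.0517 for rho), and -0.16 among the 16 libraries without high nuclear RNA. Without C replicates 1 and 2 its adjusted permutation p for r was 0.0749 (r = -0.46).

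The 12 adipocyte markers also ran opposite to the mitochondrial ratio (r = -0.67, permutation p = 0.00131, and rho = -0.72, permutation p = 0.00063, n = 20; adjusted p = 0.00321 and 0.00273). All 12 were detected in every group. Progenitor markers (r = 0.66, permutation p = 0.00173, and rho = 0.67, n = 20) and endothelial markers (r = 0.67, permutation p = 0.00157, and rho = 0.67) ran with it, each with an adjusted permutation p of 0.00321 for r. The adipocyte, progenitor and endothelial relations had an adjusted permutation p for r of 0.0586, 0.0462 and 0.0808 within the short arm. Within the long arm these were 0.0542, 0.038 and 0.124. Without the 4 libraries high in nuclear RNA their r was -0.56, 0.55 and 0.68, with adjusted permutation p of 0.0507, 0.0507 and 0.0151. Mesothelial markers (r = 0.66, rho = 0.48, n = 20, adjusted permutation p = 0.00321 for r and 0.0517 for rho) and epididymal epithelium markers (r = 0.51, rho = 0.57, adjusted permutation p = 0.0333 and 0.0241) also ran with it. Without the 4 libraries high in nuclear RNA, r was -0.03 for the mesothelial and 0.57 for the epididymal epithelium list, and without C replicates 1 and 2 their adjusted permutation p for r were 0.0749 and 0.143. The spermatid and erythrocyte lists had adjusted permutation p for r of 0.188 and 0.382 (r = 0.34 and 0.22, n = 20), and within the short arm the spermatid list gave r = 0.77 (adjusted permutation p = 0.0059, n = 12). The macrophage list gave r = 0.27 (adjusted permutation p = 0.293, n = 20). For nuclear-retained RNA r was 0.71 (rho = 0.46, n = 20, adjusted permutation p = 0.00221 for r and 0.058 for rho). Within the short arm r was 0.87 (adjusted permutation p = 0.00247, n = 12) and within the long arm 0.52 (0.274, n = 8). For this list the libraries formed separate clusters, and among the 16 libraries outside the high cluster r was 0.15 (rho = -0.03).

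**Figure D5:**
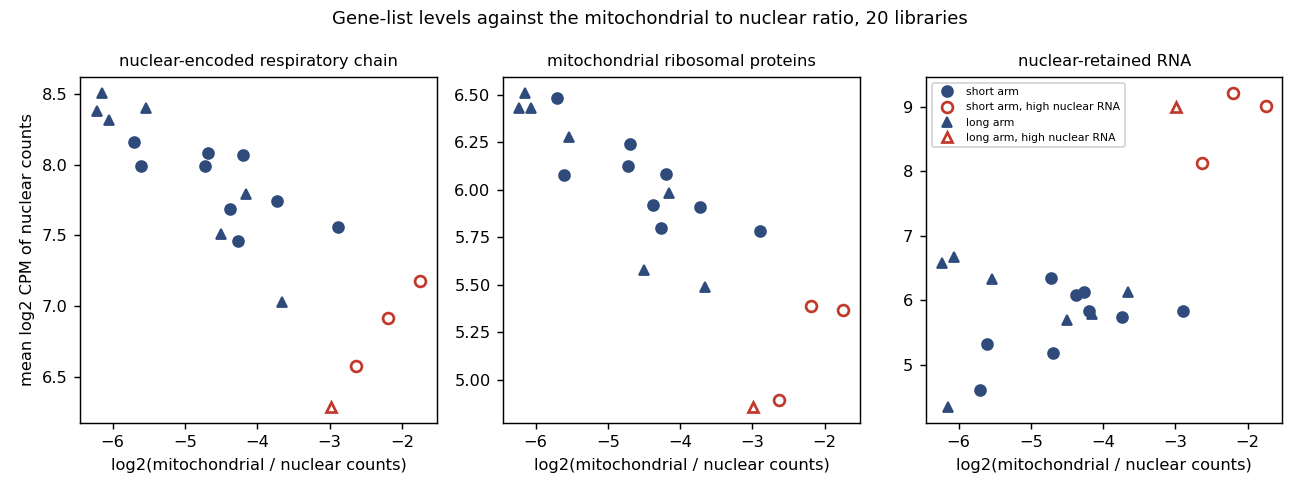
Mean log2 level of 3 gene lists, as CPM scaled to nuclear counts, against the log2 ratio of mitochondrial to nuclear counts in the 20 libraries (circles short arm, triangles long arm, open red symbols the 4 libraries high in nuclear-retained RNA). The first 2 lists fall along the ratio (r = -0.84 and -0.85), while nuclear-retained RNA separates the 4 libraries from the other 16.

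The balance among mitochondrial mRNAs moved with the ratio too, in a family of 5 relations computed after the values were seen. The complex I, mt-Cytb and mt-Nd6 shares are parts of the same mRNA total, and mt-Nd6 is counted within complex I. Their relations are therefore not independent of one another. The complex I share of mitochondrial mRNA was lower where the ratio was higher (r = -0.68, permutation p = 0.00112, and rho = -0.75, permutation p = 0.0002, n = 20; adjusted p = 0.0056 and 0.001). Without C replicates 1 and 2 r was -0.58, within the short arm -0.75 and within the long arm -0.37 (exact permutation p = 0.362, n = 8). The mt-Nd6 share showed r = -0.60 (permutation p = 0.004; rho = -0.64, permutation p = 0.00274, n = 20; adjusted p = 0.01 and 0.00685), -0.69 without C replicates 1 and 2, -0.42 within the short arm and -0.64 within the long arm. The mt-Cytb share showed r = 0.55 (permutation p = 0.012; rho = 0.54, permutation p = 0.0149, n = 20), and 0.42 with an adjusted permutation p of 0.132 without C replicates 1 and 2, which ended the call. It was 0.50 (rho = 0.58) among the 16 libraries without high nuclear RNA, with an adjusted permutation p of 0.0776 for r and 0.0322 for rho, and 0.63 within the short arm and 0.09 within the long arm. The rRNA share (r = -0.18) and the ratio of the rRNAs (r = -0.26) had adjusted permutation p of 0.444 and 0.348 (n = 20).

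The genes that run mitochondrial gene expression were followed as a list of 33, among them the transcription factor Tfam, the RNA polymerase Polrmt and the RNA-stabilising Lrpprc. In H against C 4 of 33 were called lower and none higher, against 6.49% of all genes tested called in either direction. Ppargc1a, a coactivator of mitochondrial biogenesis, had 19.7, 25.4 and 8.77 CPM in C and 5.83, 3.66 and 3.41 in H. All H mice lay below all C mice, which was so for 6.91% of all genes tested. Ppargc1a fell by 2.12 on the log2 scale (SE 0.47, adjusted p = 0.0264 in edgeR). Its levels over all 20 libraries were highest in the 4 libraries high in nuclear RNA: beside C replicates 1 and 2 it had 17.9 CPM in HC replicate 3 and 25.0 in CCC replicate 2, against at most 13.9 in the others. What part these libraries have in its fall was not tested. Its relative Ppargc1b fell by 2.23 (SE 0.59, adjusted p = 0.0581 in edgeR) and the mitochondrial DNA helicase Twnk by 1.22 (SE 0.33, adjusted p = 0.0615). Ppargc1b had 40.7, 49.6 and 13.6 CPM in C and 7.76, 5.81 and 9.23 in H. It had 54.2 in CCC replicate 2 and 25.5 in HC replicate 3, against at most 36.3 outside the 4 libraries. For Ppargc1b too, the part of these libraries was not tested. The fourth called gene, named after its values were seen, was Tbrg4, which binds mitochondrial RNA.

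In HH against CC_l 1 of the 33 was called (6.79% of all genes tested), Tbrg4, which had 35.8 and 36.5 CPM in CC_l and 11.7 and 18.0 in HH and fell by 1.38 (SE 0.42, adjusted p = 0.1 in edgeR). In HHC against CCC 1 was called (3.12% of all genes), the Ppargc1a relative Pprc1, which fell by 1.53 (SE 0.45, adjusted p = 0.276 in edgeR). In HC against CC_s, CC_s against C and CCC against CC_l none of the 33 was called by edgeR. The median of the list was -0.32 in H against C (all genes -0.15) and -0.38 in HH against CC_l (all genes -0.23), while the medians of the mt- genes were -1.72 and 2.34. Across the 20 libraries the list gave r = 0.03 with the mitochondrial ratio (adjusted permutation p = 0.914), and r = -0.68 (rho = -0.71, adjusted permutation p = 0.0151 for r) among the 16 without high nuclear RNA.

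The 5 nuclear genes whose pattern was most like the mitochondrial ratio, by Pearson's r of log2 levels over 20 libraries among 9547 genes with a mean of at least 10 CPM scaled to nuclear counts, were Taf1 (0.94), Scamp1 (0.94), Ahnak (0.93), Ptch1 (0.93) and Aplp2 (0.92). They are given as a description with no test. None is an annotated copy of a mitochondrial gene.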

How the data were processed

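The values are gene counts per library, one table for 20 libraries, deposited by the authors as whole numbers without normalization. Per the labels and the study's methods, reads were trimmed with Trim Galore 0.6.6 (checked with FastQC 0.11.9), aligned to mm10 with HISAT2 2.2.1 and counted per gene with Subread 2.0.1. Strand and multi-mapping settings are not given in the sources used here. Between 74.4% and 89.2% of the non-zero counts of a library were even, so a fit on halved counts was an alternative. Libraries held 10710277 to 36738954 counts.

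The members and gene lists were chosen with earlier results of these data known. Groups came from the sample labels, and 0 columns of sample values were left unused. Shares were compared by exact permutation tests (SciPy 1.17.1). Counts were tested in R 4.3.3 with edgeR 4.0.16 (TMM, filter on low counts, quasi-likelihood test, all 8 groups in the fit), with p adjusted by Benjamini-Hochberg over all genes. DESeq2 1.42.0 was an alternative. Each library is 1 mouse, so p-values of group comparisons rest on the spread between mice. The permutations across libraries ignored the groups, so their p-values mix differences between groups with that spread. The fit was tested on simulated data. In H against C, over 21464 genes, it recovered 45 of 100 genes changed 4-fold and 20 of 100 changed 2-fold, and in HH against CC_l 33 and 9 of 100.

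Lists were measured as the mean log2 CPM scaled to nuclear counts (prior count 2) and set against the log2 ratio of mitochondrial to nuclear counts with 100000 permutations. Gene positions and sequences are from the GENCODE M21 annotation and transcripts, which place members on GRCm38, the assembly called mm10. Shared 50-base words were sought among annotated transcripts only. The named members are both rRNAs, mt-Nd6, the 5 mRNAs and 3 tRNAs with the highest mean CPM, the lowest mRNA and every called member. Of the list of mitochondrial gene expression up to 3 called genes per comparison are named.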

Additional observations from a re-analysis of the deposited data

Results flagged for a closer look

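The complex III share of mitochondrial mRNA, which is mt-Cytb alone, moved in opposite directions with HFD in the 2 arms: it was 4.66 percentage points lower in H than in C and 5.08 points higher in HH than in CC_l. The difference between the effects was -9.74 points (exact permutation of the labels within each comparison, p = 0.0333, smallest possible 0.0167, adjusted over the 4 pairs of comparisons 0.12). The H and C mice overlapped.

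mt-Te, the tRNA for glutamate, also had effects of opposite sign in H against C and HH against CC_l, with every HFD mouse below the C mice in the short arm and above the CC_l mice in the long arm. The first order was found for 1 of 28 members and 6.91% of all genes tested, the second for 27 of 28 and 29.3%. The difference between the effects on mt-Te was -4.76 on the log2 scale (edgeR interaction, 0.848 after Benjamini-Hochberg adjustment of its p). The arms differ in run label as well as in age and duration of diet, which cannot be told apart.

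The tRNA genes mt-Tm, mt-Tt and mt-Tv, encoded on the plus strand, lay higher in both HH mice than in the CC_l mice and lower in both HHC mice than in the CCC mice. The first was so for 27 of 28 members and 29.3% of all genes tested, so it does not single out these 3. The second was so for 3 of 28 members against 21.4% of all genes tested, and 1 member, mt-Tl1, lay higher in both HHC mice. The difference of effects was 4.66 for mt-Tm (tRNA for methionine), 6.80 for mt-Tt (threonine) and 7.68 for mt-Tv (valine) on the log2 scale, with adjusted p of 0.244, 0.237 and 0.227 in the edgeR interaction. The counts behind them were low: 38 and 28 in HH, 6 and 0 in CC_l, 4 and 12 in HHC and 12 and 20 in CCC for mt-Tm. mt-Tt and mt-Tv had 0 counts in both HHC mice, so their fitted values depend on the prior count and are no measure of size. All 3 were named after their values were seen.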

How the results depend on the processing

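The difference in mitochondrial share kept its direction under all other denominators and gene sets tried. Leaving out 1 library gave ranges of -15.0 to -5.31 points for H against C, -2.32 to 4.17 for HC against CC_s (-0.774 without CC_s replicate 3), 3.61 to 5.64 for HH against CC_l, -8.40 to 1.33 for HHC against CCC, -14.6 to -4.98 for CC_s against C and -0.236 to 9.50 for CCC against CC_l. Without the 4 libraries high in nuclear-retained RNA, chosen after seeing the data, the differences were 1.78 (H, C), -2.32 (HC, CC_s), 1.33 (HHC, CCC), 2.11 (CC_s, C) and -0.236 (CCC, CC_l). That choice leaves C with replicate 3 alone and CCC with replicate 1 alone. The rRNA share ranged from -13.0 to 0.597 points for H against C, -8.25 to 2.56 for HC against CC_s and -20.5 to 10.9 for HHC against CCC with 1 library left out, and for CC_s against C was -4.85 without the 4 libraries.

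Called members numbered 2 in H against C and 2 in CC_s against C. In H against C they were 1 at an adjusted p below 0.05, 5 by the likelihood ratio test and 1 with nuclear-only normalization. There were 12 with no filter, 5 by DESeq2 and 0 to 5 with 1 library left out. In CC_s against C they were 0 at an adjusted p below 0.05, 4 by the likelihood ratio test, 13 with no filter and 6 by DESeq2. There was 1 with only the compared groups and 0 to 13 with 1 library left out. The log2 fold change of mt-Nd6 there turned to 0.47 without the 4 libraries high in nuclear RNA. In HH against CC_l, where none was called, there were 1 by the likelihood ratio test, 11 with no filter, 1 by DESeq2, 14 with only the compared groups and 0 to 1 with 1 library left out. With no filter 1 was called in HC against CC_s, 1 in HHC against CCC, 4 in CCC against CC_l, and 4 and 6 in the interactions. Of 13 lists 9 had an adjusted permutation p below 0.05, 4 within the long arm, 5 without the 2 farthest libraries and 4 without the 4. Calls over all genes are given below for only some of these fits, so the member counts alone do not single out the members. The cause of the changes between settings was not tested.

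Replicate numbers did not pair the samples (same-number correlations -0.28 to 0.28). With the replicate block 1 member was called in H against C and 1 in CC_s against C. Over all genes the block gave 204, 375, 304 and 288 calls in HC against CC_s, HHC against CCC, CC_s against C and CCC against CC_l (374, 669, 525 and 572 without it), and DESeq2 727, 1185, 1394 and 1021, with 2163 in H against C (1392) and 2309 in HH against CC_l (1458). With no filter the 6 comparisons had 1266 to 2879 calls. In HHC against CCC the calls were 96 higher and 573 lower, and 156 and 421 with RLE factors. Groups of 2 and 3 mice, rather than depth, set the precision of shares.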
